A study of Rattus norvegicus with 4 samples.

Results

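Mitochondrial ribosomal proteins were followed in INS-1 832/3 cells, an insulin-secreting line from a rat insulinoma, grown either as a conventional 2D monolayer or 3D-bioprinted in GelXA LAMININK 411, a gelatin methacrylate hydrogel blended with laminin-411. The family was chosen with earlier results of these data known, and its genes were taken by name and level. TPM (the length-corrected share of a transcript, scaled so that a library sums to 1000000) were summed per gene symbol. Symbols that begin with Mrpl or Mrps followed by a digit and reach a mean of at least 1 TPM were kept. This gave 74 genes, 45 of the large subunit (Mrpl) and 29 of the small subunit (Mrps), out of 11960 genes at that level and 23360 symbols listed. The only symbol of the pattern below the limit was Mrps21l, with a mean of 0.602 TPM, while the lowest gene kept, Mrpl40, stood at 11.1 TPM. Another 3 symbols are written in lower case in the files (mrpl9, mrpl11 and mrpl24), were not taken by the rule and are described apart. Polyadenylated RNA was sequenced from 2 monolayer and 2 bioprinted cultures, all harvested after 5 days at passage 3 and grown in the same medium. The groups differ in the hydrogel, the printing process and the geometry at once, which cannot be told apart. The culture in 3D formed cell clusters (pseudoislets) from a single tumor-derived line.

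The mitoribosome is the ribosome inside mitochondria. It is assembled from ribosomal RNA encoded in the mitochondrial genome and from proteins encoded in the nucleus, and it translates the few messengers that the mitochondrial genome holds, all of them for subunits of the respiratory chain and ATP synthase. In the beta-cell, ATP from this chain couples glucose to insulin secretion. The large subunit joins amino acids and feeds the new chain into the inner membrane, the small subunit reads the messenger, and both contain proteins inherited from the bacterial ancestor beside others that exist in mitochondria alone.

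Read depth cannot be recovered from TPM, so counting error is unknown and the only measure of precision is the agreement of the 2 cultures in a group. The 13 beta-cell markers looked up were all above a mean of 1 TPM. Fibroblast, endothelial and immune markers summed to between 0.562 and 2.35 TPM per list and culture. Of 4 genes of other islet cells only 1, glucagon (Gcg), reached a mean of 1 TPM, and the list summed to 42.1 and 74.2 TPM in the monolayers and 124 and 155 TPM after bioprinting. Whether this bears on the genes below was not tested. In bulk RNA, fewer cells with a transcript and less of it per cell cannot be told apart.

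In 3D-bioprinted cells, most transcripts for proteins of the mitoribosome were lower, in the large and in the small subunit. Of the 74 genes, 51 were lower with an adjusted p below 0.05 (limma on log2(TPM + 1) after scaling between samples, Benjamini-Hochberg adjustment over all 11960 genes), 68.9% of them, where 19.5% of all genes tested were called lower. None was called higher, where 18.5% of all genes were, and at an unadjusted p below 0.05 the count of higher genes was 0 as well. The log2 fold change was below 0 for 69 genes and above 0 for 5. The median was -0.31, a fall of 19.3% on this scale, while the median of all genes tested was -0.0031. After scaling, both 3D cultures lay below both monolayer cultures in 63 of the 74 genes (85.1%), against 38.2% of all genes. Among called genes the change of the mean TPM ran from -9.31% to -33.9%, so no gene of the family was halved. Since the groups overlapped in none of the 51, their log2 fold changes necessarily stayed negative whichever culture was left out. The number of calls was less stable. Most calls remained without either monolayer culture, but almost none without 3D R1 or 3D R2, where few of all genes were called either. With 1 culture left out, the median log2 fold change of the members ran from -0.39 to -0.28. That of all genes ran from -0.0049 to -0.00065.

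**Figure D1:**
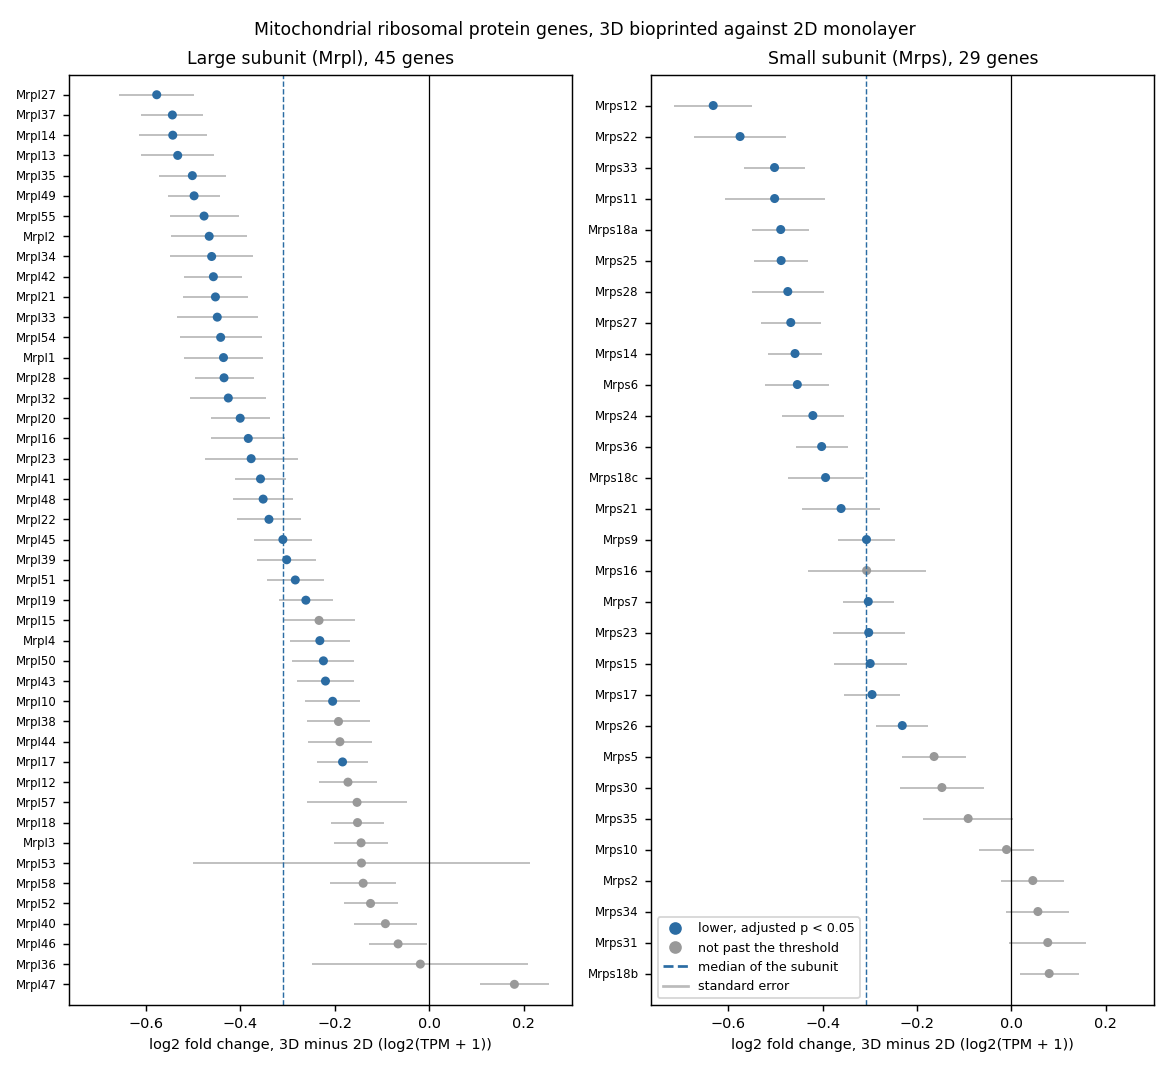
Log2 fold change (3D minus 2D, on log2(TPM + 1), x axis) of each of the 45 large subunit and 29 small subunit genes, ordered by size, with the standard error from limma as bars, blue for adjusted p below 0.05 and a dashed line at the median of the subunit. The medians lie at -0.31 in both panels, and the 5 genes to the right of 0 are Mrpl47 and, in the small subunit, Mrps18b, Mrps31, Mrps34 and Mrps2.

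The stretch of DNA around the start of these genes is shown for members at both ends of this range, since most of them fell and the start region is a sequence that can be compared between them. RefSeq promoters of the GRCr8 assembly, 250 bases before to 50 bases after the annotated start, were matched by symbol for 57 of the 74 members, 38 of them called lower. The other 17, among them Mrps12, Mrpl14 and Mrpl13, had no unique match. The windows below run 5′ to 3′ on the strand of the gene, with motif letters in capitals. Mrpl27 (chr10:80092095-80092394, plus strand) and Mrpl37 (chr5:127074918-127075217, minus strand) had the largest falls with a promoter at hand, Mrps11 (chr1:142117014-142117313, plus strand) shares its window with another member, and Mrpl47 (chr2:117447312-117447611, minus strand) and Mrps18b (chr20:2842756-2843055, plus strand) had the highest log2 fold changes.
Mrpl27: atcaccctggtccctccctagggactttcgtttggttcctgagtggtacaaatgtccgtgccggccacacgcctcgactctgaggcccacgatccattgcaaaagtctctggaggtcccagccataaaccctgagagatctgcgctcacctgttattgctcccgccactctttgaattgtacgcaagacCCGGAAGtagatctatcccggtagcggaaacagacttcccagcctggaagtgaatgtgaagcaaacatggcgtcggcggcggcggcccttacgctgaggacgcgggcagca
Mrpl37: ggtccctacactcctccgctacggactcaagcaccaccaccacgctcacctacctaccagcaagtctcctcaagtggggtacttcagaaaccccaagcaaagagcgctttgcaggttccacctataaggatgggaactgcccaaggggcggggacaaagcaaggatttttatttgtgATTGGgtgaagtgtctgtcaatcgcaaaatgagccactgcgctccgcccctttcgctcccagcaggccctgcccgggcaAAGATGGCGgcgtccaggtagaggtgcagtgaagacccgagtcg
Mrps11: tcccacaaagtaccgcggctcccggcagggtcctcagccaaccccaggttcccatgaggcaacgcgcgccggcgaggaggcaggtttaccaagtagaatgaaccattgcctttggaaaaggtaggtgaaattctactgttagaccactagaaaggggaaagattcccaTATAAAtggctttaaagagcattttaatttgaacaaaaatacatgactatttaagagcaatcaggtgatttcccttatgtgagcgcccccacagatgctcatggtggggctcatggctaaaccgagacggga
Mrpl47: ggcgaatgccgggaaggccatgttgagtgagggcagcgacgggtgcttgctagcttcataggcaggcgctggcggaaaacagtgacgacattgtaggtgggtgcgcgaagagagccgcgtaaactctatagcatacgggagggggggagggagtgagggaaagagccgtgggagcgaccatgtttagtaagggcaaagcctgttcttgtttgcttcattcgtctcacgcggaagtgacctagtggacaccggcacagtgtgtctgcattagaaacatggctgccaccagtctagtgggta
Mrps18b: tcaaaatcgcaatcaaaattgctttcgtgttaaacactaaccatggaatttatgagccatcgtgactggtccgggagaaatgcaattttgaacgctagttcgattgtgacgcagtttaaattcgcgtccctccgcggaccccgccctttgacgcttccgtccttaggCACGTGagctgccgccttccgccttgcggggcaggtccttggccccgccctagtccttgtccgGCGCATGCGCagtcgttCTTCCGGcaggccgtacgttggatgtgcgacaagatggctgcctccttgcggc

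Both strands were searched for 6 short motifs, each as exact letters. CCGGAAG, the core of sites for GABP and other ETS factors, was in 33.3% of the 57 member promoters, in 19.3% of the 8246 promoters of tested genes and in 11.4% of all 17545 promoters of protein-coding genes. AAGATGGCG, the core of a YY1 site, was in 15.8%, 4.38% and 2.40% of these sets, and GCGCATGC, part of the palindrome bound by NRF1, in 8.77%, 5.63% and 3.25%. All 3 factors are known for binding nuclear genes of mitochondrial proteins. CCAAT was found in 45.6%, 38.2% and 38.4% of the 3 sets. TATAAA was in 12.3% of member promoters, above the 5.82% of tested genes and near the 13.3% of all, and CACGTG (the E-box) in 8.77%, between 10.0% of tested genes and 7.34% of all. The median log2 fold change was -0.23 in the 19 members with CCGGAAG and -0.31 in those without. It was -0.22 in the 9 with AAGATGGCG and -0.31 in those without. For GCGCATGC and for TATAAA the medians were -0.19 with the letters and -0.31 without. They were -0.23 and -0.31 for CACGTG, and -0.29 and -0.34 for CCAAT. The smaller fall with the letters was thus seen for each of the 6 motifs and was not particular to any. CCGGAAG was in 10 of 38 promoters of called members and 9 of 19 of uncalled ones, and AAGATGGCG in 5 and 4 of these. Whether any of these values differ was not tested. In the windows printed above, CCGGAAG begins 61 bases before the start of Mrpl27 and AAGATGGCG at base 7 of Mrpl37, whereas Mrpl47 holds none of the 6. Mrpl37 also holds CCAAT in reverse and Mrps11 holds TATAAA. The window of Mrps18b holds the NRF1 letters on both strands, as overlapping matches, together with CACGTG and the ETS letters in reverse. A match of letters is a description of the window, and the start used by these cells was not measured.

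Large and small subunit were then compared. Of the large subunit genes 31 of 45 were called lower (68.9%) and of the small subunit genes 20 of 29 (69.0%), with median log2 fold changes of -0.31 each (-0.3099 and -0.3070). Summed over the large subunit, TPM were 4145 and 4198 in monolayer and 3335 and 3250 in 3D culture, a mean fall of 21.1%. The small subunit summed to 1855 and 1929 TPM in monolayer against 1553 and 1576 TPM in bioprinted cells, a mean fall of 17.3%. In both sums the 3D cultures lay below the monolayer cultures by more than the replicates differed. The ratio of the sums, which no scaling between samples can alter, was 2.23 and 2.18 in monolayer and 2.15 and 2.06 in 3D culture. The mean difference was -0.0999, with both bioprinted cultures below both monolayers, where the SD within groups was 0.041 and 0.060. An exact permutation test of 2 against 2 has 0.33 as its smallest two-sided p, and none is given. The difference was smaller without Mrpl33, the most abundant member, when the values were 1.33 and 1.31 in monolayer and 1.29 and 1.30 in 3D culture, a difference of -0.0243. Together the 74 genes took 0.600% and 0.613% of TPM in monolayer and 0.489% and 0.483% in 3D culture.

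**Figure D2:**
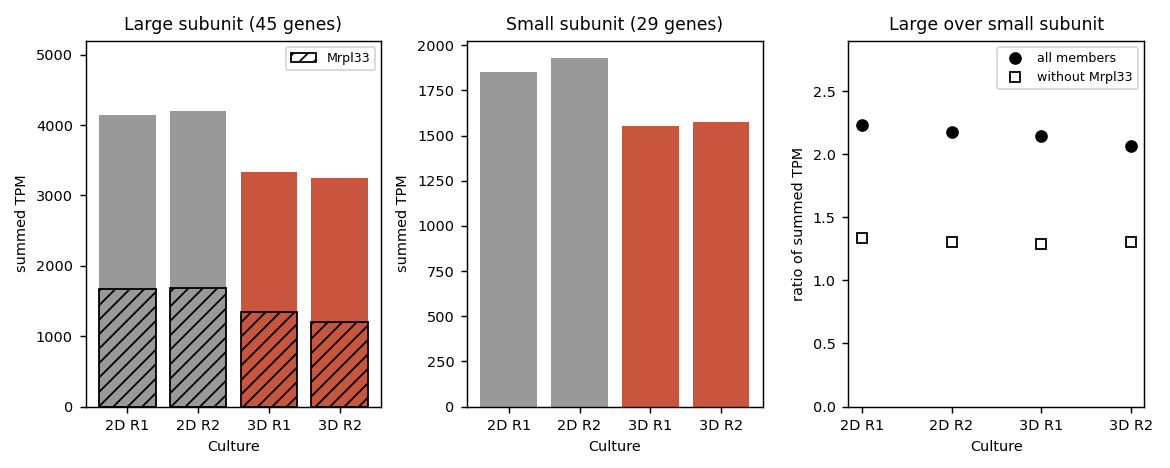
Summed TPM of the large subunit (left, Mrpl33 hatched) and of the small subunit (middle) in each culture, with bars from 0, and the ratio of these sums (right) with all members (filled) and without Mrpl33 (open). Both sums are lower in the 3D cultures, while the ratio without Mrpl33 stays between 1.29 and 1.33.

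Where subunit is taken from structures of the mammalian mitoribosome in place of the symbol, Mrps18a and Mrps30 belong to the large subunit and Mrps36 to neither, being now regarded as a component of the 2-oxoglutarate dehydrogenase complex. Proteins with other names then join: Gadd45gip1 in the large and Dap3, Chchd1, Aurkaip1 and Ptcd3 in the small subunit. With that assignment the difference in the ratio was -0.169. The 2 subunits also hold genes of different descent. Of 42 members listed as counterparts of a bacterial ribosomal protein, 32 were called lower (76.2%), with a median log2 fold change of -0.38. Of 29 members found in mitochondria alone, 17 were called lower (58.6%), with a median of -0.23. Over all members the share called lower was 68.9%, and over all genes 19.5%. The lists leave out 3 members: Mrps36, and Mrps18a and Mrps18b, which are also homologs of bacterial S18 but not at its position. The split was present in the large subunit, with medians of -0.39 over 26 and -0.22 over 20 genes (Mrps30 included), and narrower in the small subunit, with -0.33 over 16 and -0.30 over 9 genes. These shares and medians are given as descriptions, and whether they differ was not tested.

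The largest falls belonged to both subunits. Mrps12, the homolog of bacterial S12 at the decoding centre, had 62.0 and 65.2 TPM in the monolayers and 39.3 and 44.7 TPM after bioprinting (log2 fold change -0.63, standard error 0.083, adjusted p = 0.0063 in limma). Both bioprinted cultures stood well below both monolayers. Mrpl27, homolog of a bacterial protein that reaches toward the site of peptide bond formation, went from 108 and 112 TPM to 71.3 and 80.8 TPM (log2 fold change -0.58, standard error 0.079). Mrps22, a mitochondria-specific protein of the small subunit and among the 5 lowest members by level, had 15.7 and 13.9 TPM in monolayer against 9.03 and 10.8 TPM in bioprinted cells. The log2 fold change was -0.57, its standard error 0.097 (adjusted p = 0.0106 in limma), and the groups did not overlap although its replicates, relative to their mean, were more spread than those of Mrps12.

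Mrpl37 and Mrpl49, both mitochondria-specific, and Mrpl14, the homolog of bacterial L14 on the face that meets the small subunit, had the smallest p-values of the large subunit. Mrpl37 had 58.5 and 61.0 TPM in the monolayers and 41.5 and 42.2 TPM after bioprinting (log2 fold change -0.54, adjusted p = 0.0055 in limma). Mrpl49 went from 141 and 139 TPM to 103 and 101 TPM, and its log2 fold change was -0.50 (standard error 0.055). Mrpl14 stood at 71.4 and 74.8 TPM in monolayer against 49.3 and 53.5 TPM in bioprinted cells. In these 3 genes replicates of a group lay within a few TPM of each other while the groups were far apart. Mrpl13, Mrps33, Mrpl35 and Mrps11 completed the 10 largest falls, with log2 fold changes between -0.53 and -0.50. The smallest p-values of the small subunit were those of Mrps25, Mrps18a and Mrps14. Mrps25 had 65.9 and 66.0 TPM in the monolayers and 48.1 and 48.3 TPM after bioprinting, with an SD of 0.083 and 0.092 TPM.

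**Figure D3:**
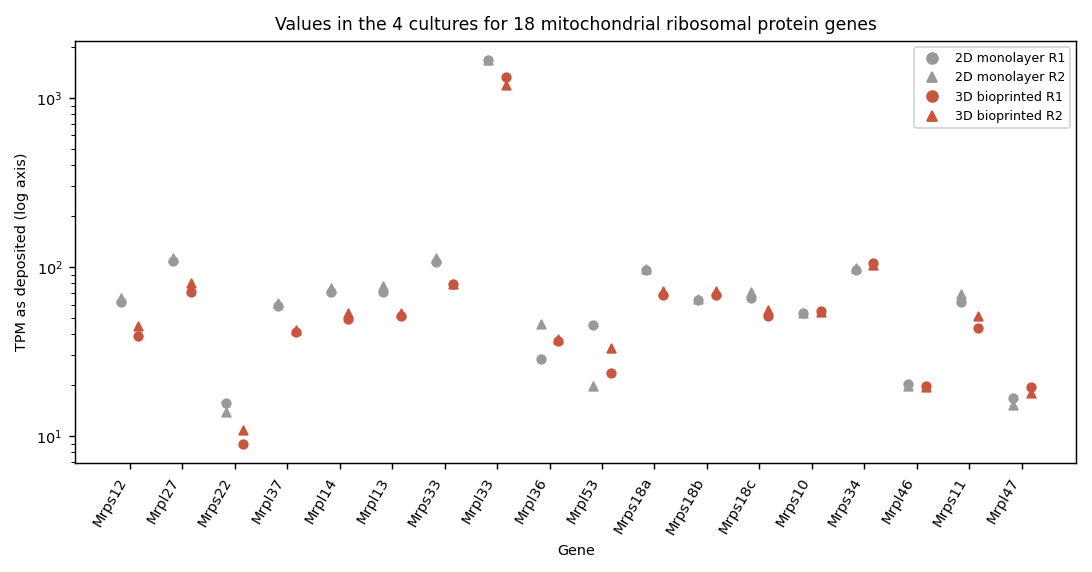
TPM as deposited (log axis) of 18 members in each of the 4 cultures, grey for monolayer and red for 3D, with circles for R1 and triangles for R2. Mrpl33 stands alone at the top, the 7 genes at the left have both red points below both grey ones, and Mrpl36 and Mrpl53 show monolayer replicates far apart.

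By level the members were close together, with 73 of 74 between 10 and 200 TPM and a median of 49.5 TPM. The exception was Mrpl33, homolog of the small bacterial protein L33, at 1672 and 1679 TPM in monolayer against 1339 and 1195 TPM in bioprinted cells. Its mean was 8.15 times that of the next gene, Mrpl17, and it made up between 24.8% and 27.9% of the TPM of all 74 members. It fell by 0.45 on the log2 scale (adjusted p = 0.0141 in limma), with the 3D replicates wider apart than those of the monolayer. The files list 2 transcripts of Mrpl33. The major one, ENSRNOT00000034712.4, had 1490 and 1586 TPM in the monolayers and 1302 and 1133 TPM after bioprinting, and the minor one, ENSRNOT00000084751.1, had 182 and 93.6 TPM against 36.6 and 62.8 TPM. Mrpl17 itself, at the rim of the exit tunnel, went from 190 and 189 TPM to 172 and 171 TPM, and this small fall (-0.18 on the log2 scale, adjusted p = 0.0468 in limma) was past the threshold in 3 of 9 other settings. Mrps21, Mrps36 and Mrpl23 followed in level with means of 177, 140 and 137 TPM, all called lower, with log2 fold changes of -0.36, -0.40 and -0.38. At the other end, Mrpl40, Mrps35, Mrps22, Mrpl44 and Mrpl47 had means between 11.1 and 17.4 TPM. Across the 74 genes, Spearman's rho between mean level and log2 fold change was -0.28, a description over genes that share the same 4 libraries.

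The 5 members with a log2 fold change above 0 did not pass the test. Mrpl47, homolog of bacterial L29 beside the tunnel exit, had 16.7 and 15.3 TPM in monolayer against 19.6 and 18.05 TPM in bioprinted cells. It was the only member in which both 3D cultures lay above both monolayers after scaling, with a log2 fold change of 0.18, a standard error of 0.074 and an adjusted p of 0.104 in limma. Mrps34, a mitochondria-specific protein that binds the small subunit rRNA, had 95.5 and 99.1 TPM in monolayer against 106 and 102 TPM, values that overlapped after scaling (log2 fold change 0.056). Mrps31 and Mrps2 had log2 fold changes of 0.077 and 0.045, each with a standard error at least as large. These values, and that of Mrps34, changed sign with 1 culture left out. Mrps10 was nearest to 0, with 53.3 and 53.5 TPM in the monolayers and 54.9 and 54.4 TPM after bioprinting. Its log2 fold change was -0.01 after scaling and 0.032 on the TPM as deposited, and Mrpl36 was the other member whose sign changed without scaling (-0.019 and 0.024).

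In 10 members the groups overlapped after scaling, 3 of the large and 7 of the small subunit. Both 3D cultures lay below both monolayers in 85.1% of members and above them in 1.35%, against 38.2% and 37.3% of all genes. The rest overlapped. In 2 of the 10 overlapping members the monolayer replicates were far apart. Mrpl53 had 45.3 and 19.8 TPM in the monolayer replicates and 23.5 and 33.2 TPM in 3D culture, an SD of 55.4% of the monolayer mean, where the median SD over members was 3.05%. Mrpl36 had 28.7 and 46.2 TPM in monolayer around 3D values of 36.6 and 37.6 TPM. Without monolayer R2 its log2 fold change was 0.35 and it was the 1 member called higher (adjusted p = 0.0291 in limma). For these 2 genes no direction can be read from 2 cultures. Mrps16 had 65.6 and 81.3 TPM in monolayer against 61.2 and 60.1 TPM in bioprinted cells, no overlap, but a standard error of 0.125 on a fitted change of -0.31 (log2 scale, adjusted p = 0.103 in limma).

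The members were also read by their place in the ribosome. The lists hold 2 to 7 genes each, where 68.9% of all members and 19.5% of all genes were called lower. Whether a list differs from the other members was not tested. At the base of the stalk that recruits translation factors, Mrpl10 had 33.9 and 33.6 TPM in the monolayers and 30.04 and 30.07 TPM after bioprinting, a called fall (-0.20 on the log2 scale, adjusted p = 0.0412 in limma) that was past the threshold in 6 of 9 other settings. Mrpl12, which forms the arms of the stalk, had a log2 fold change of -0.17 and an adjusted p of 0.0728. Of 5 genes around the exit of the nascent chain (Mrpl17, Mrpl22, Mrpl23, Mrpl45 and Mrpl47), 4 were called lower. Mrpl45, which faces the inner membrane, had 23.8 and 21.9 TPM in monolayer against 18.9 and 18.7 TPM in bioprinted cells (log2 fold change -0.31). Mrpl22 and Mrpl23, whose bacterial homologs line and ring the exit, had log2 fold changes of -0.34 and -0.38, and Mrpl23 was not called without the expression filter or without the trend.

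Around the peptidyl transferase centre, Mrpl2, Mrpl4 and Mrpl16 were called lower, with log2 fold changes of -0.47, -0.23 and -0.38, of which Mrpl4 was not called without scaling (-0.19) or without the trend. Mrpl3 had 28.3 and 26.5 TPM in the monolayers and 25.6 and 25.3 TPM after bioprinting, without overlap and with an adjusted p of 0.0989 in limma. For the central protuberance, a crest of the large subunit above the tRNA sites, 7 genes were listed and 3 of these were called. Mrpl27, Mrpl55 and Mrpl48 were lower (-0.58, -0.48 and -0.35). Mrpl18, Mrpl38, Mrpl40 and Mrpl46 were not called, with log2 fold changes from -0.19 to -0.066. For the decoding centre and the entry of the messenger, 3 small subunit genes were listed. Mrps12 and Mrps24 were called lower (-0.63 and -0.42) and Mrps5 was not (-0.16, adjusted p = 0.109 in limma). With its highest transcript alone Mrps24 was not called either (-0.28, adjusted p = 0.0936).

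The rat genome holds 3 homologs of bacterial S18, which sit at separate places in the mitoribosome: Mrps18c takes the bacterial position and Mrps18b another in the small subunit, and Mrps18a belongs to the large subunit. Mrps18a had 95.5 and 97.0 TPM in monolayer against 68.7 and 72.2 TPM in bioprinted cells (log2 fold change -0.49, adjusted p = 0.0057 in limma). Mrps18c went from 65.7 and 71.3 TPM to 51.6 and 55.3 TPM (log2 fold change -0.39, adjusted p = 0.0169). Mrps18b had 63.6 and 64.9 TPM in the monolayers and 68.0 and 72.1 TPM after bioprinting, with a log2 fold change of 0.08, an adjusted p of 0.342 in limma and overlap after scaling. Within a culture, the ratio of Mrps18b to Mrps18a was 0.665 and 0.669 in monolayer and 0.990 and 0.999 in 3D culture. Ratios to Mrps18c were 0.968 and 0.910 in monolayer and 1.32 and 1.30 in 3D culture. Both ratios were higher in both bioprinted cultures, by far more than replicates differed, whereas that of Mrps18c to Mrps18a was 0.687 and 0.735 against 0.751 and 0.767. Mrps18b is listed with 6 transcripts, and its main one, ENSRNOT00000001058.6, had 44.4 and 46.0 TPM in monolayer against 44.3 and 48.1 TPM in bioprinted cells. The transcript ENSRNOT00000081904.1 went from 2.07 and 2.72 TPM to 6.08 and 6.09 TPM. With the main transcript alone the log2 fold change of the gene was -0.0044, so the sign of Mrps18b rested on its minor transcripts.

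Many genes of this family share a start region with a neighbour on the opposite strand. In RefSeq, 16 of the 57 members with a promoter (28.1%) had such a head-to-head neighbour with its start within 1000 bases, where 11.6% of the 8246 tested genes with a promoter had one. Mrpl46 and Mrps11 are neighbours of each other, with starts 234 bases apart, so both starts lie in the Mrps11 window printed above. Mrps11 had 62.0 and 69.3 TPM in the monolayers and 43.8 and 51.3 TPM after bioprinting, called lower (log2 fold change -0.50, adjusted p = 0.0186 in limma). Mrpl46 had 20.3 and 19.7 TPM in monolayer against 19.8 and 19.4 TPM in bioprinted cells, and a log2 fold change near 0 (-0.066, adjusted p = 0.424). Of the 13 tested neighbours that are not members, 4 were called lower and 1 higher, where 19.5% and 18.5% of all genes were, and the median log2 fold change was -0.20. The 4 lower ones were Eme1 beside Mrpl27 (-0.56), Psma2 beside Mrpl32 (-0.35), Tcp1 beside Mrpl18 (-0.28) and Ncapd2 beside Mrpl51 (-0.24). Gga3 beside Mrps7 was called higher (0.30), where Mrps7 was called lower (-0.30). Mrpl47 at 0.18 starts 244 bases from Ndufb5 at -0.20, and neither passed the test.

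**Figure D4:**
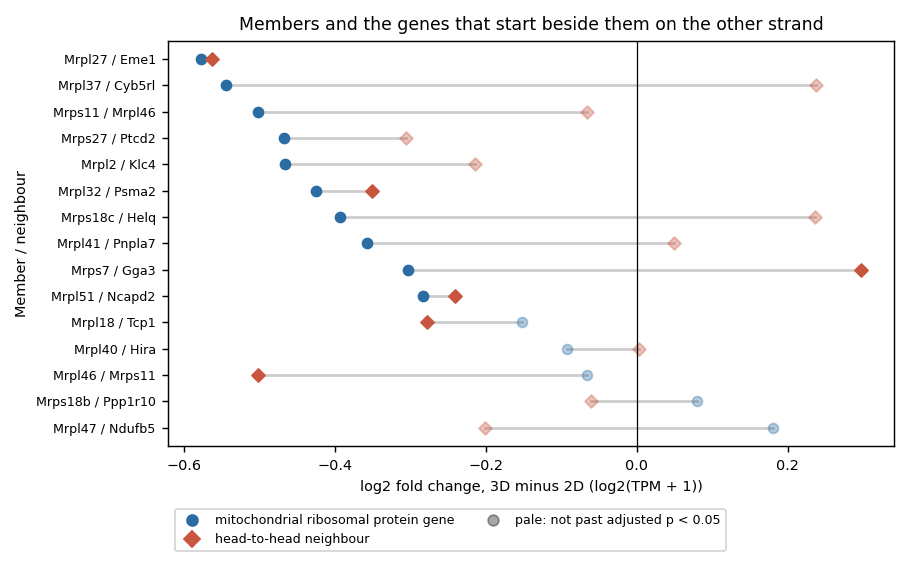
Log2 fold change (3D minus 2D, x axis) of members (blue circles) and of the gene that starts beside each on the opposite strand (red diamonds), 1 row per member with a tested neighbour, pale where the adjusted p was not below 0.05. Mrpl49 is not drawn, as its neighbour Fau was not tested. Mrpl27 and Eme1 lie together near -0.57, while Mrps11 and Mrpl46, drawn once from each side, lie apart at -0.50 and -0.066.

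Mitoribosome proteins without an Mrp symbol, and those in lower case, were read in the same fit. Gadd45gip1, a large subunit protein at the tunnel exit also known as CRIF1, had 22.5 and 25.1 TPM in the monolayers and 14.5 and 17.1 TPM after bioprinting, called lower (log2 fold change -0.60, adjusted p = 0.0117 in limma). Chchd1 of the small subunit was called lower (-0.43, adjusted p = 0.0158). Dap3, a GTP-binding protein of the small subunit head, had a log2 fold change of -0.14 and Ptcd3, which receives the messenger, of 0.10, and neither passed. Aurkaip1 had 74.1 and 70.7 TPM in monolayer against 84.4 and 83.6 TPM in bioprinted cells, no overlap and an adjusted p of 0.0513 in limma. The symbols mrpl11 and mrpl24 were called lower (-0.30 and -0.26), and mrpl9 had 38.7 and 37.8 TPM in the monolayers and 38.9 and 38.9 TPM after bioprinting, and a log2 fold change near 0 (-0.018, adjusted p = 0.815).

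The genes that work with the mitoribosome, with the proteins without an Mrp symbol, gave 49 tested genes in 5 lists. Of these 10 were called lower (20.4%, against 19.5% of all genes) and 6 higher (12.2%, against 18.5% of all genes), with a median log2 fold change of -0.11. The share called lower was thus near that of all genes. Among 11 translation factors, 2 were lower and 1 higher. Tufm, the elongation factor that delivers tRNA, had 71.5 and 69.1 TPM in monolayer against 53.4 and 55.2 TPM in bioprinted cells (log2 fold change -0.41, adjusted p = 0.0061 in limma). Mtrf1, a release factor, fell by 0.69 on the log2 scale, but with its highest transcript alone the value was -0.097 and not called (adjusted p = 0.402). Gfm2, which separates the subunits after termination, rose from 12.2 and 11.4 TPM to 14.9 and 15.7 TPM (log2 fold change 0.30, adjusted p = 0.0191). Among 18 assembly factors, 3 were lower (Mtg2 at -0.30, Rbfa at -0.27 and Eral1 at -0.21) and 3 higher (Ybey at 0.64, Gtpbp6 at 0.48 and Dhx30 at 0.26). Several of these calls depended on the setting. Eral1 was not called without scaling (adjusted p = 0.127) and in 5 further settings of 9, Rbfa not with its highest transcript alone (-0.15, adjusted p = 0.111), Mtg2 not without scaling (adjusted p = 0.0699) or without the expression filter, and Gtpbp6 and Dhx30 not without the expression filter. Ybey, an endoribonuclease homolog needed for the small subunit, had the largest rise, from 7.45 and 7.01 TPM to 12.6 and 11.8 TPM.

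Of 8 genes for enzymes that modify mitochondrial rRNA, Tfb1m, the small subunit rRNA dimethylase, was called lower (-0.44). Mrm1, a methyltransferase of the large subunit rRNA, was called higher (0.29). Each is 12.5% of the list, below the 19.5% of all genes called lower and the 18.5% called higher. Of 7 genes for insertion of nascent chains and stability of messengers, Slirp (-0.42) and Taco1 (-0.40) were called lower and Rmnd1 higher (0.37). These are 28.6% and 14.3% of a short list, and whether they differ from the shares of all genes was not tested. Without the expression filter Slirp and Taco1 were not called, nor was Taco1 without scaling. Lrpprc, the partner of Slirp, had a log2 fold change of -0.01. The messengers that the mitoribosome translates were on the other side of 0. Of the 13 mitochondrially encoded messengers, 6 were called higher (46.2%, against 18.5% of all genes) and 12 had both 3D cultures above both monolayers (92.3%, against 37.3% of all genes), with a median log2 fold change of 0.27. They summed to 10.1% and 9.35% of TPM in monolayer and 13.0% and 12.3% in 3D culture, so their larger share moved together with the lower share of the mitoribosome genes. TPM are shares of 1 total, and the part of the one in the other was not tested.

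**Figure D5:**
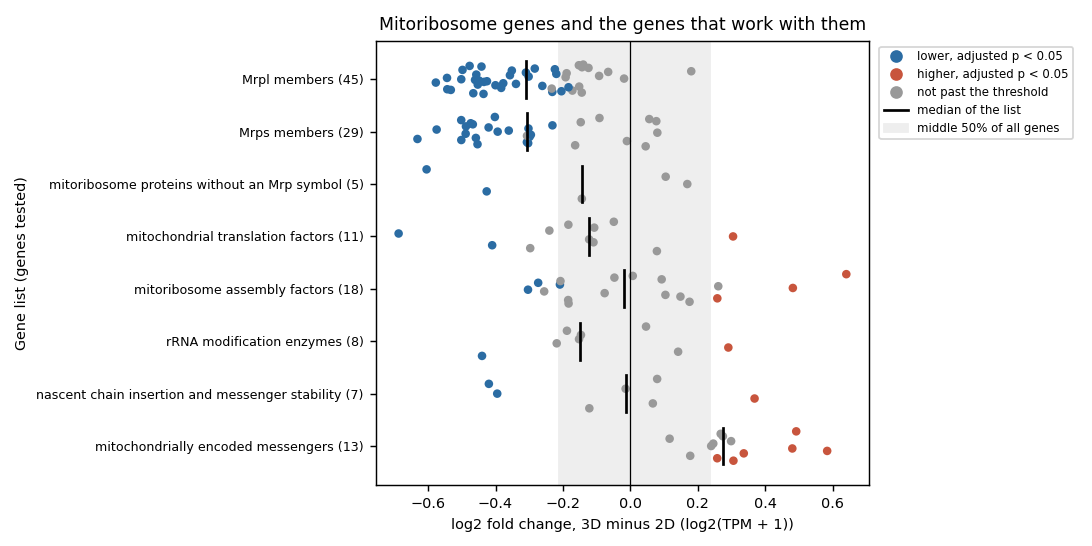
Log2 fold change (3D minus 2D, x axis) of every tested gene of the Mrpl and Mrps members and of 6 further lists, blue for called lower, red for called higher and grey for neither, with a black bar at each median and a band between the quartiles of all genes (-0.211 and 0.235). Both member lists have their median left of the band, the assembly factors spread to both sides, and the mitochondrially encoded messengers lie right of 0.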

How the data were processed

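Polyadenylated RNA of 2 monolayer and 2 bioprinted INS-1 cultures was sequenced, and conditions and replicate numbers were read from the sample titles. The authors quantified single-end reads per transcript with Salmon 1.2 (FastQC 0.11.8 for quality) against rn4, as the methods name it, plus human insulin. The deposited values are TPM with decimal commas. In each sample the values were tested to be non-negative and to sum to 1000000. The samples were compared in pairs, and none had a transcript with equal values above 0. The count summary, count filter and DESeq2 test of the methods were not repeated, as TPM hold neither counts nor lengths.

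TPM were summed per symbol and symbols averaging 1 TPM or more were kept. Scaling between samples was a TMM-like one with no weights (trimming 0.3 of M and 0.05 of A values from both tails), with factors from 0.960 to 1.02. The test was limma 3.58.1 in R 4.3.3 on log2(TPM + 1), its empirical Bayes step with an intensity trend, 3D against 2D without covariates, over 11960 genes. Fold changes on this scale understate those of low genes. Values per culture are TPM as deposited, while overlap between groups was judged after scaling. Tables were made with Python 3.11.15 and pandas 2.3.3. The members, gene lists and motifs were chosen with earlier results of these data known. Of 53 symbols in the lists of partner genes 49 were tested. Trmt61b and Mtrfr were not found by symbol, Mettl15 was below 1 TPM, and Ict1 is listed as Mrpl58, a member. Named genes were the 10 largest called falls, all members above 0, the 5 highest and 5 lowest by level, the 3 smallest p per subunit, members of the position lists and called partner genes, to which others were added after their values were seen (Mrps10, Mrpl36, Mrpl53, Mrps16 and the uncalled partner genes). Alternatives were the scaling, pseudocount, expression filter, replicate block, trend, threshold, transcript choice, subunit assignment and each culture left out in turn.

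Promoter windows came from RefSeq (GRCr8), whose build differs from that of the files, and were matched by symbol among protein-coding genes with 1 window. Reads of the family can be shared with its processed pseudogenes, which were not examined here. On simulated TPM with known changes, 72.0% of genes changed by 1 and 7.3% of those changed by 0.5 on the log2 scale were called. Among the 11725 genes simulated, 9.2% of calls were of unchanged genes. Only 100 tested genes were changed by 1 and 96 by 0.5, where 4541 of 11960 genes were called in the data. The SD of each gene was drawn without regard to its level. These shares therefore cannot be carried over to the calls above. The labels call the cultures biological replicates and say no more of their origin, so p-values measure the spread between these cultures alone.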

Additional observations from a re-analysis of the deposited data

How the results depend on the processing

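All 51 called members stayed lower under the 9 other settings that keep every culture, and 41 stayed past the threshold in each. The lowest number of called members among these settings was 43, in empirical Bayes without trend. With an adjusted p below 0.01, 22 members were called lower, 12 of the large and 10 of the small subunit, and 4 partner genes were called. With 1 culture left out, counts of lower calls ran from 0 to 54 for members, 0 to 32 for the large and 0 to 22 for the small subunit, members called higher from 0 to 1, and partner genes called from 0 to 12. The low ends of the lower calls and of the partner genes come from leaving out 3D R1, where few of all genes were called either. With 1 culture left out, the lone sample of a group is assumed to vary like the other group. The replicate numbers are a label only: deviations of same-numbered cultures correlated at -0.006 over 11960 genes, and with the replicate block 49 members were called lower, 48 of them shared with the fit without it. The median log2 fold change of the large subunit was -0.27 without scaling between samples, and that of the small subunit ran from -0.40 to -0.28 with 1 culture left out. The difference in the ratio of subunit sums (-0.0999) was -0.022 with the highest transcript alone, -0.169 with subunits from structures and -0.024 without Mrpl33, the last chosen after seeing the data, as was adding the lower-case symbols. With 1 culture left out it ran from -0.143 to -0.057, and the cause of these shifts was not tested. With 1 culture left out, the log2 fold change of Mrps2 ran from -0.015 to 0.11, Mrps31 from -0.013 to 0.17, Mrps34 from -0.0065 to 0.12 and Mrps35 from -0.20 to 0.021. Mrps18b was -0.0044 with its highest transcript alone. As TPM hold no depth, counting error is unknown.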
